A study of Saccharomyces cerevisiae with 8 samples.

Results

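The interaction of heat shock and Ifh1 depletion was the difference between the heat shock change of each gene in yeast cells treated to deplete the protein Ifh1 and its change in untreated cells. It was measured over 8 of the 8 libraries of the study and over every gene that passed a filter on low counts, 5734 of 6034 targets. Poly-A RNA was sequenced from the budding yeast Saccharomyces cerevisiae, of strain W303a, in cultures grown at 30 °C in rich medium with 2% dextrose to an OD600 of 0.2 to 0.4. The groups were cells kept at 30 °C, cells held at 39 °C for 5 min, cells given 5ph-IAA and kept at 30 °C, and cells given 5ph-IAA and then held at 39 °C for 5 min, with 2 libraries in each of the 4 groups. The treatment protocol gives 1 µM β-estradiol with 5 µM 5ph-IAA for 30 min. 5ph-IAA is an auxin analogue that triggers the breakdown of a degron-tagged protein, whereas the design text of the study names anchor away, a method that moves a protein out of the nucleus. The labels do not say which tagged strain was used, whether all 4 groups carried it, or what the cells without 5ph-IAA received. In the text, the start level of a gene is its level at 30 °C and its end level is that after 5 min at 39 °C. A positive interaction means that the heat shock change was more upward, or less downward, with 5ph-IAA than without it.

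Ifh1 is a coactivator that sits with the DNA-bound proteins Fhl1 and Rap1 on the promoters of ribosomal protein genes and drives their transcription in growing cells. A sudden rise in temperature switches yeast from growth to protection. The factor Hsf1 turns on chaperone genes, and Msn2 and Msn4 turn on genes for trehalose, glycogen and antioxidant enzymes. At the same time the genes for ribosomal proteins and for the large set of factors that build ribosomes are turned down.

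The libraries held 7717767 to 21025464 estimated counts, and the deepest were those at 39 °C without 5ph-IAA, with 21025464 and 19974567. Libraries of the same group were further apart than sampling of reads allows (chi-square divided by its degrees of freedom, 3.41 to 4.53). The a-cell receptor gene STE2 lay between 73.6 and 495 TPM, the length-adjusted share of all transcripts, over the libraries, and the alpha-cell receptor gene STE3 between 1.44 and 4.06, in the pattern of the labelled a mating type. The labels call the replicates biological without mention of separate cultures, and the p-values therefore cover only the spread among these libraries. The level of IFH1 mRNA does not check a depletion that acts on the protein. In a measurement of bulk RNA, fewer cells expressing a gene and less RNA per cell cannot be told apart.

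Most genes with an interaction changed less on heat shock when 5ph-IAA had been given. Genes of ribosome building fell less, and genes of the Msn2/4 stress response rose less. The interaction passed the threshold for 2805 of 5734 genes, 48.9% of those tested (edgeR quasi-likelihood test, Benjamini-Hochberg adjusted p under 0.05). It was higher for 1490 genes (26%) and lower for 1315 (22.9%). A size of at least 2-fold was reached by 513 genes (8.95%), 329 higher (5.74%) and 184 lower (3.21%). Among the 2805 genes, 1169 (41.7%) fell less with 5ph-IAA and 970 (34.6%) rose less, by the sign of their fitted changes. Only 143 (5.1%) rose more and 120 (4.28%) fell more, and the remaining 403 (14.4%) had fitted heat shock changes of opposite sign in the 2 arms. Across all tested genes the heat shock changes had an SD of 1.55 on the log2 scale without 5ph-IAA and 1.17 with it, and Pearson's r across genes between them was 0.875. These arms shared no library, and genes are not independent replicates.

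The balance of higher and lower calls depended on the scaling of the libraries. Ribosomal protein genes took 40.2% ± 0.684 (SD, n = 2) of all TPM at 30 °C and 17.2% ± 0.0967 with 5ph-IAA. A scaling by total counts sets each gene against a total that includes them. Which scaling comes closest to the amount of RNA per cell was not tested. With library totals alone, 908 genes were higher and 2550 lower, and on the log2(TPM + 1) scale, where limma replaced edgeR, 685 were higher and 2948 lower. Genes that fell less made up 23.9% and 16.9% of the calls there, and genes that rose less 34.5% and 40.6%. The median interaction of all tested genes moved from −0.003 with the main scaling (TMM) to −0.256 with library totals and −0.348 on the TPM scale. The median 5ph-IAA difference moved from −0.016 to 0.383 and 0.614 at 30 °C and from −0.003 to 0.143 and 0.280 at 39 °C. Under 5 scalings, 1860 genes (32.4%) were called with the same sign each time, 679 higher (11.8%) and 1181 lower (20.6%). Values below are from the main scaling, and are to be read against these shifts.

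An interaction can arise because the level before the shock differed, because the level reached at 39 °C differed, or both. The 5ph-IAA difference passed the test for 2965 genes at 30 °C (51.7%) and for 2552 at 39 °C (44.5%). Of the 2805 genes with an interaction, 929 (16.2% of all tested genes) differed at the start only, 357 with a higher (6.23%) and 572 with a lower interaction (9.98%). Another 572 (9.98%) differed at the end only, 280 higher (4.88%) and 292 lower (5.09%). For 342 genes (5.96%) the difference at the start had narrowed by the end, for 61 (1.06%) it had widened, and for 791 (13.8%) it had the opposite sign at both temperatures and passed the test at each. A further 110 genes (1.92%) passed the test at neither temperature. These classes depended strongly on the scaling. Of the 572 lower genes that differed at the start only, 215 stayed in that class under all 5 scalings, as did 95 of the 103 lower genes that narrowed (1.8%). Of the 280 higher genes that differed at the end only, 0 did, and of the 543 higher genes with opposite signs (9.47%), 27 did.

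A sort by size was centred on the median of all tested genes. By construction this takes out of the values the shift that a change of library scaling gives to every gene. The sort still used calls that were not centred. It took the genes called in the interaction with a value at least 1 (log2) from that median, and called the difference a start-level difference where its size at 30 °C was at least 2 times that at 39 °C, an end-level difference in the opposite case, and mixed otherwise. By this sort 205 genes differed mainly at the start, 83 with a higher and 122 with a lower interaction. For 167 genes the difference was mainly at the end, and 156 of these were higher and 11 lower. The remaining 144 were mixed, 93 higher and 51 lower. On the log2(TPM + 1) scale, which also changes the test and the transformation, 149 of the 156 higher end-level genes were sorted there again. So were 91 of the 122 lower start-level genes, 70 of the 83 higher start-level genes and 8 of the 11 lower end-level genes. Of the mixed genes, 78 of the 93 higher and 28 of the 51 lower were mixed again. The 156 higher end-level genes had a median heat shock change of −3.42 without and −1.79 with 5ph-IAA (log2), and median 5ph-IAA differences of −0.36 at 30 °C and 1.20 at 39 °C. The 122 lower start-level genes had median heat shock changes of 3.24 and 1.77, with 5ph-IAA differences of 1.29 at 30 °C and −0.07 at 39 °C. The 83 higher start-level genes had median heat shock changes of −1.61 and 0.01, with differences of −1.39 and −0.05. The 93 higher mixed genes had median heat shock changes of −2.46 and −1.16, with differences of −0.65 and 0.68. These medians describe the genes that the sort chose by the same values and carry no test.

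**Figure D1:**
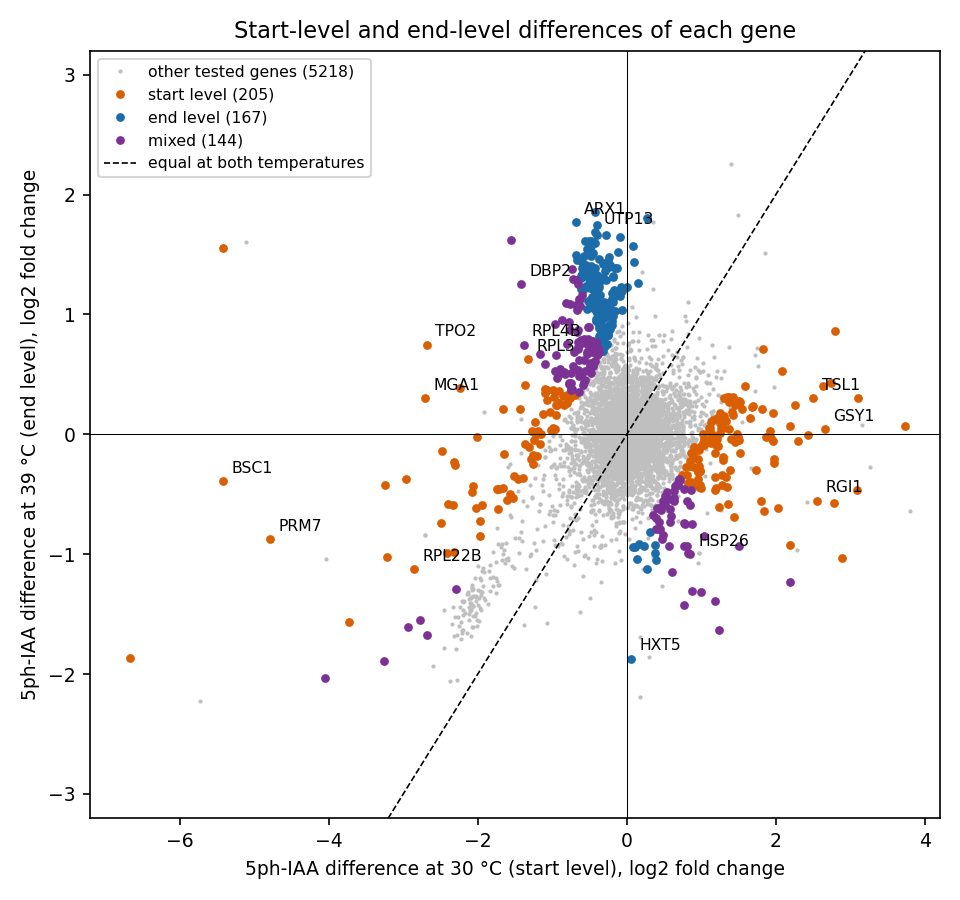
Each point is a tested gene, with its 5ph-IAA difference at 30 °C on the horizontal and at 39 °C on the vertical axis (both log2 fold change, main scaling). Colours mark the 205 start-level, 167 end-level and 144 mixed genes, the dashed line marks equal differences at both temperatures, and 15 genes lie outside the range drawn. The 156 higher end-level genes form the column above 0 on the vertical axis.

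**Figure D2:**
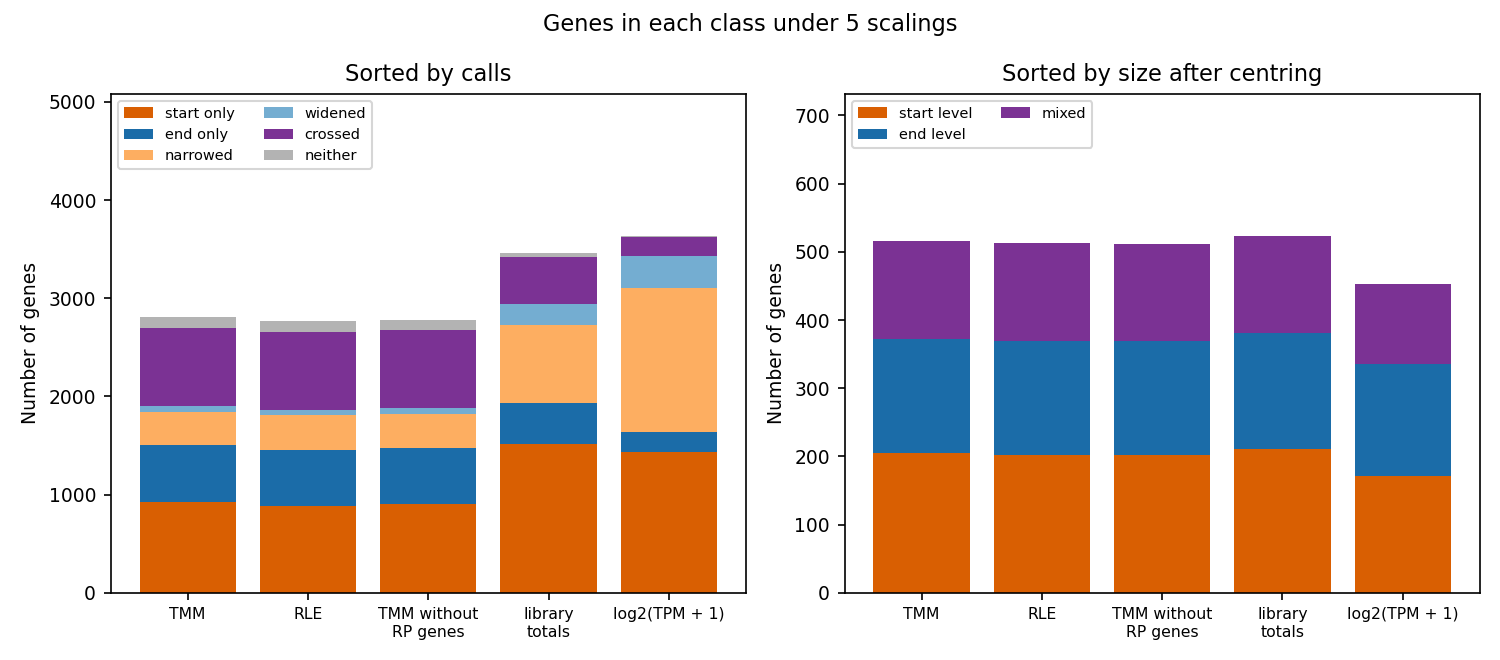
The bars count genes called in the interaction by class under 5 scalings, on the left by which 5ph-IAA differences passed the test and on the right by size after centring on the median of all tested genes. The start-only class went from 929 to 1511 genes between TMM and library totals, while the counts on the right change little because the centring cancels a shift shared by all genes.

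Promoters of 5 genes are shown because the start-level and end-level genes differed in the short motifs that their promoters held. Each sequence holds the 250 bases before the start codon and the first 50 from the start codon on, read 5′ to 3′ on the strand of the gene from RefSeq's R64 genome, which is of strain S288C and not of W303a. Capitals mark CCCCT (the core of the Msn2/4 stress element), GATGAG (the core of the PAC motif) and AAAATTTT (the core of the RRPE motif), each on either strand. UTP13, ARX1 and RPL3 lie at chrXII:581722-582021 (minus strand), chrIV:657418-657717 (minus strand) and chrXV:444436-444735 (plus strand). TSL1 and RGI1 lie at chrXIII:70374-70673 and chrV:291816-292115 (both plus strand).
UTP13: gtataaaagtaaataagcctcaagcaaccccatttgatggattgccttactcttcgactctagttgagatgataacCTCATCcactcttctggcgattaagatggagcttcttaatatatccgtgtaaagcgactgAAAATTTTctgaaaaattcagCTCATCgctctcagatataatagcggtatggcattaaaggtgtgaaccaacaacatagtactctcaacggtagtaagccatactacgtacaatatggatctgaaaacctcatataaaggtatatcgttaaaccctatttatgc
ARX1: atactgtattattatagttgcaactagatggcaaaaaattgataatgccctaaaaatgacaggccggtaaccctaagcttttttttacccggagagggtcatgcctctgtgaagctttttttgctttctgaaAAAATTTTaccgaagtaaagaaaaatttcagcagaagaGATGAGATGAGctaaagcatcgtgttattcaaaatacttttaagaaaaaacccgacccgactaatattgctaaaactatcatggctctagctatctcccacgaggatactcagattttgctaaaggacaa
RPL3: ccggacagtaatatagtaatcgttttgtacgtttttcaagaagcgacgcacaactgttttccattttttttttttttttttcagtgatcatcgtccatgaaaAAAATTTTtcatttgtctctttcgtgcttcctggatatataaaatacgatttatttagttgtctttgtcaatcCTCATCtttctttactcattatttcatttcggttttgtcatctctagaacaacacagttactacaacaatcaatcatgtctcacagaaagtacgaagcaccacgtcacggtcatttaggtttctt
TSL1: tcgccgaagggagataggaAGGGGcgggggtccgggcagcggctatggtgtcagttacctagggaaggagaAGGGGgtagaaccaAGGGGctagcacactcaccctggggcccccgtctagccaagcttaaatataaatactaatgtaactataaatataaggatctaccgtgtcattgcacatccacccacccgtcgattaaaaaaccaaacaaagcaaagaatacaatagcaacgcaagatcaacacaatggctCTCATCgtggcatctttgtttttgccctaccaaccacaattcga
RGI1: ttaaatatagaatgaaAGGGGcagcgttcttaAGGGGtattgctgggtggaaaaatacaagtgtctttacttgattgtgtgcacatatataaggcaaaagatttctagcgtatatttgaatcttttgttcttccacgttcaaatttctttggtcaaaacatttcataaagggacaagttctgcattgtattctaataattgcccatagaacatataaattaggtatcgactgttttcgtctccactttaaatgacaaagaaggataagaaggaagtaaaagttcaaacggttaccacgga

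UTP13 and ARX1 are ribosome-building genes whose end level differed, and both windows held GATGAG and AAAATTTT. TSL1 and RGI1 are stress genes whose start level differed, and both held CCCCT, while the GATGAG match of TSL1 lay after its start codon. Of the 156 higher end-level genes, 84% had GATGAG and 66% had AAAATTTT, and 62.2% had both. Among all 6001 promoters of nuclear coding genes, 20.4%, 9.03% and 4.38% did. The motifs were not particular to the end-level genes. The 93 higher mixed genes had GATGAG in 51.6% and AAAATTTT in 37.6%. The full lists of small subunit processome and large subunit assembly genes described below had GATGAG in 88.6% and 89.8%, and AAAATTTT in 75% and 81.4%. Of the 122 lower start-level genes, 44.3% had CCCCT, against 21.6% of all promoters and 8.97% of the higher end-level genes. The full list of Msn2/4 stress genes had CCCCT in 71.1%, and the 51 lower mixed genes in 31.4%. The 83 higher start-level genes had GATGAG in 30.1% and AAAATTTT in 12%. Only 1 of the 131 tested ribosomal protein genes had both GATGAG and AAAATTTT in its window, and that gene was RPL3. A match of letters is a description of the window and was not tested as a binding site.

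Genes that build ribosomes ended higher with 5ph-IAA. The small subunit processome is the nucleolar complex that cuts and folds the precursor of the 18S rRNA. Of its 44 tested genes, 41 had a higher interaction, 1 a lower and 2 did not pass, with a median of 1.57 against −0.003 for all tested genes. Heat shock left a median 7.52% of their 30 °C level without 5ph-IAA and 20.9% with it. The 59 genes of large subunit assembly behaved likewise, with 56 higher and 0 lower, a median of 1.60, and 7.16% against 23.1% left. With library totals alone the medians were 1.31 and 1.35, and on the log2(TPM + 1) scale 1.12 and 1.10. Among all tested genes 26% had a higher and 22.9% a lower interaction with the main scaling.

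At 30 °C, 37 of the 44 processome genes and 56 of the 59 large subunit genes were lower with 5ph-IAA and 0 were higher, where 28.1% and 23.6% of all tested genes were. In all, 36 and 53 of them were lower at 30 °C and higher at 39 °C. The median difference at 30 °C was −0.41 for the processome and −0.43 for large subunit assembly, against −0.016 for all tested genes. With library totals it was −0.01 and −0.03 against 0.383, and on the TPM scale 0.24 and 0.22 against 0.614. Both lists lay below the median of all genes under these 3 scalings, while the sign of their own median turned. At 39 °C the median difference was 1.15 and 1.13, and it stayed between 1.15 and 1.31 for the processome under these 3 scalings. Of the 44 processome genes 40 were higher at 39 °C with 5ph-IAA and 1 was lower, where 22.5% and 22% of all tested genes were called. Of the 59 large subunit genes 56 were higher and 0 lower. By the sort by size 28 of 44 and 35 of 59 were higher end-level genes, as were 156 of all 5734 tested genes.

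UTP13, a structural subunit of the processome, went from 75.7 and 71.9 TPM to 1.79 and 1.61 on heat shock without 5ph-IAA, and from 87.6 and 84.3 to 6.77 and 6.68 with it. Both 39 °C libraries with 5ph-IAA lay above both without it, and the 39 °C libraries of both arms lay far below those at 30 °C. Its fitted difference at 30 °C was −0.43, but 0.22 on the TPM scale. Its interaction was 2.12 ± 0.11 (log2 ± SE, edgeR, adjusted p = 3.65e-09). ARX1, which helps to export the large subunit precursor from the nucleus, stood at 161 and 154 TPM at 30 °C and 3.97 and 4.07 at 39 °C. With 5ph-IAA it stood at 151 and 155 TPM and then at 15.5 and 18.3. In TPM the 30 °C groups overlapped and the 39 °C groups did not. With the main scaling ARX1 was lower with 5ph-IAA at 30 °C (−0.69, edgeR, adjusted p = 2.14e-07) and higher at 39 °C (1.77), and the interaction was 2.46 ± 0.11 (adjusted p = 1.48e-09). RRP5, which acts in both subunits' pathways, had an interaction of 2.11 ± 0.10 and IMP4, a processome protein, 1.54 ± 0.11. RRP3, an RNA helicase of 18S rRNA processing, had 1.74 ± 0.10.

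DBP2, an RNA helicase, had an interaction of 2.67 ± 0.07 (adjusted p = 3.16e-11) and differed in opposite directions at both temperatures. It stood at 499 and 468 TPM at 30 °C and 24.4 and 22.1 at 39 °C, and with 5ph-IAA at 289 and 280 and then at 67.6 and 68.4. The groups overlapped at neither temperature, with the treated libraries lower at 30 °C and higher at 39 °C. Not every ribosome-building gene followed. RCL1, a processome protein that acts in cleavage of the precursor, had a lower interaction (−0.45 ± 0.12, adjusted p = 0.00881), and SOF1, RRP7, IPI1, RSA1 and REI1 did not pass the test. NSR1, a nucleolin-like protein, and NOG2, a GTPase of large subunit assembly, were among the deepest falls in both arms. NSR1 went from 1017 and 999 TPM to 10.6 and 10.8, and with 5ph-IAA from 816 and 855 to 16 and 15.5. NOG2 had an interaction of 1.37 ± 0.17, but its 5ph-IAA difference at 39 °C was 0.37 (adjusted p = 0.0689). That difference passed under the other 4 scalings, with 0.52 for library totals, 0.42 for RLE, 0.40 for TMM without ribosomal protein genes and 0.50 on the TPM scale.

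**Figure D3:**
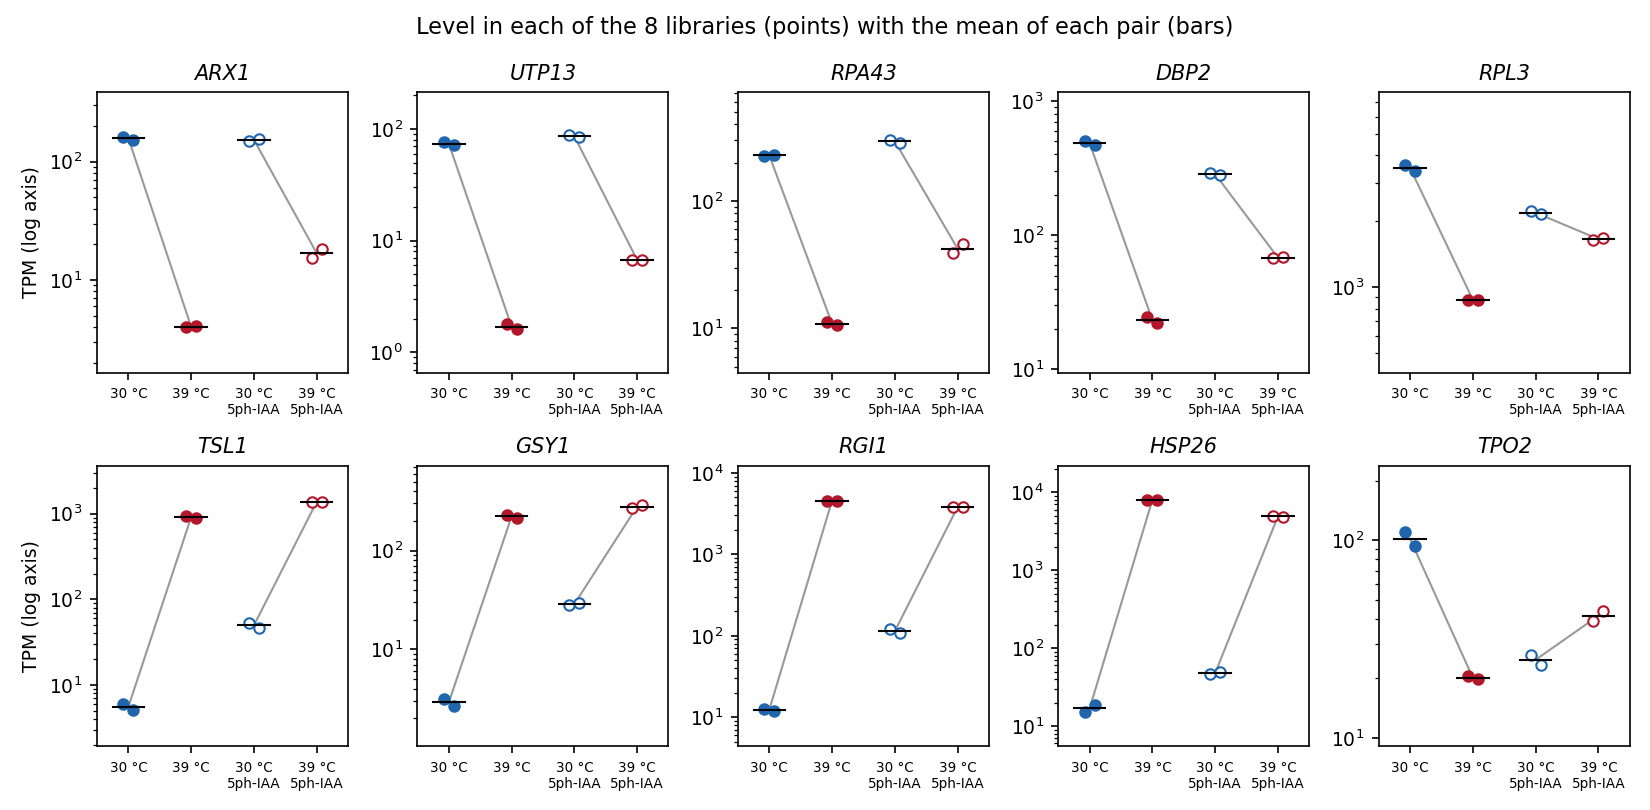
Each panel shows the TPM of a gene on a log axis in all 8 libraries as points, with the mean of each pair as a bar, blue for 30 °C, red for 39 °C and open points for 5ph-IAA. Grey lines join the 2 temperatures of an arm. ARX1 overlapped between the arms at 30 °C in TPM (fitted difference with the main scaling −0.69) and was higher at 39 °C with 5ph-IAA, whereas GSY1 started at 3.15 and 2.64 TPM without and 27.8 and 29.5 with 5ph-IAA and its arms ended closer together.

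The polymerases that make rRNA and tRNA, and the factors of translation, went the same way by smaller amounts. Of 24 genes of RNA polymerase I and III, 17 had a higher interaction and 2 a lower, where 26% and 22.9% of all tested genes did. The median of the 24 was 0.99. RPA43 and RPA135, subunits of RNA polymerase I, had interactions of 1.94 ± 0.10 and 1.97 ± 0.08. RPA43 went from 227 and 229 TPM to 11.2 and 10.6 on heat shock without 5ph-IAA, and from 303 and 286 to 39 and 45.7 with it. Its treated libraries were higher at 30 °C in TPM, whereas the fitted difference there was −0.28 with the main scaling. The exceptions were the initiation factors RRN3 (−0.61 ± 0.14) and RRN11 (−1.69 ± 0.24), which fell further with 5ph-IAA. RRN11 went from 15 and 17.5 TPM to 3.1 and 3.27, and with 5ph-IAA from 44.6 and 42.3 to 1.58 and 2.56. Of 38 translation factors 33 were higher and 0 lower, with a median of 0.64. With library totals 28 and 2 were, and on the TPM scale 23 and 4. Of all 5734 tested genes 908 were higher and 2550 lower with library totals, and 685 and 2948 on the TPM scale. YEF3, the fungal elongation factor eEF3, had an interaction of 1.37 ± 0.05 and TIF4631, a subunit of the cap-binding complex, 1.29 ± 0.07. TOD6, a repressor that binds the PAC motif, fell less as well, with an interaction of 1.76 ± 0.11.

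The ribosomal protein genes, the direct targets of Ifh1, were lower with 5ph-IAA at both temperatures, and the difference narrowed. All 131 tested genes had a positive interaction, between 0.25 and 2.14, and 129 passed the test (median 0.66), with RPS30A and RPS30B the exceptions. Among all tested genes 26% had a higher interaction. The count of higher genes was 119 with library totals and 103 on the TPM scale, with 0 lower in each. Of all 5734 tested genes 908 and 685 were higher there. At 30 °C, 130 of the 131 were lower with 5ph-IAA (28.1% of all tested genes were), with a median of −2.01. At 39 °C, 122 were lower and 6 higher, where 22% and 22.5% of all tested genes were, with a median of −1.32. The narrowed class held 120 of the 131, against 5.96% of all tested genes. By the sort by size 11 of the 131 were higher start-level genes, as were 83 of all 5734 tested genes. The median heat shock change of the 131 was −1.22 without and −0.55 with 5ph-IAA, which left 42.8% and 68.4% of the 30 °C level. RPL8A, a large subunit protein, narrowed from a start difference beyond the list's median, −2.78 at 30 °C and −1.55 at 39 °C. It went from 777 and 774 TPM to 197 and 207 on heat shock without 5ph-IAA, and from 180 and 175 to 81.9 and 87.6 with it. The treated libraries were lower at both temperatures with no overlap, and the interaction was 1.23 ± 0.08 (adjusted p = 5.1e-08).

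A few ribosomal protein genes stood apart because their end level was higher with 5ph-IAA. RPL3 and RPL4A, RPL4B encode large subunit proteins that join the ribosome early. RPL3 went from 3625 and 3385 TPM to 877 and 877 on heat shock without 5ph-IAA, and from 2225 and 2154 to 1639 and 1682 with it. Its 4 groups did not overlap, and the treated libraries changed sides between the temperatures. The fitted heat shock change was −2.13 without 5ph-IAA and −0.17 with it, an interaction of 1.96 ± 0.05 (adjusted p = 3.16e-11). RPL4B had an interaction of 2.14 ± 0.06, with 5ph-IAA differences of −1.39 at 30 °C and 0.75 at 39 °C. RPL4A had 1.83 ± 0.06, with −0.87 and 0.95. The other genes higher at 39 °C with 5ph-IAA were RPS27A, RPL9B and RPL15B. By the sort by size RPL3, RPS27A and RPL9B were nonetheless start-level genes, and RPL4A and RPL4B were mixed. The sort put 0 ribosomal protein genes among the end-level genes. RPL15B had the weakest call, 0.40 ± 0.15 (adjusted p = 0.04), fell to 0.20 without replicate 1 of the 30 °C control, and did not pass with library totals (0.15) or on the TPM scale (0.04). RPS28B (2.05 ± 0.37) and RPL22B (1.74 ± 0.18) had large interactions with the difference mainly at the start, without a higher end level. Near-identical copies such as RPL4A and RPL4B share reads, so their separate values are uncertain.

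**Figure D4:**
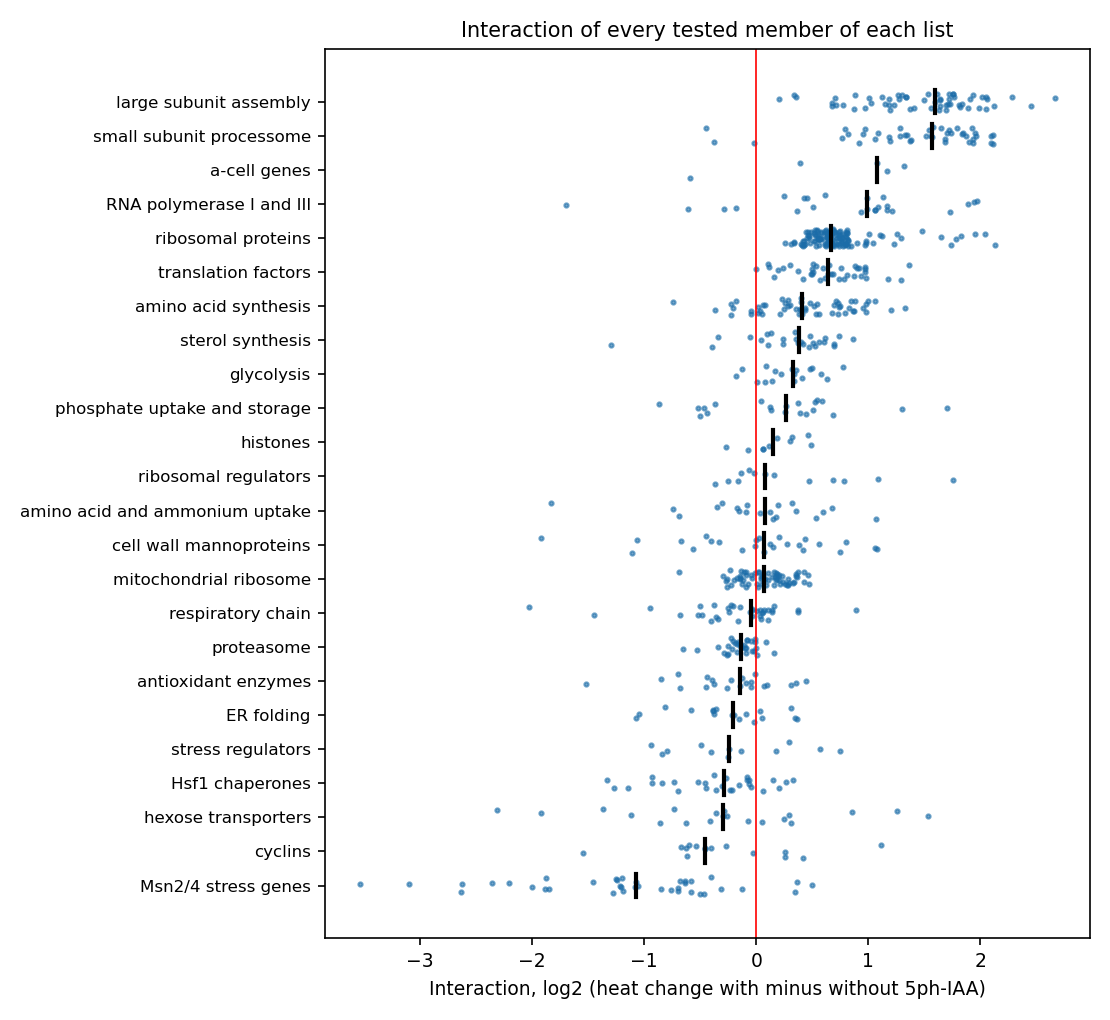
Each point is a tested gene of a list, placed by its interaction on the log2 scale (main scaling), with the list's median as a black bar and the median of all tested genes as a red line. The medians run from 1.60 for large subunit assembly to −1.08 for the Msn2/4 stress genes.

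The stress genes of Msn2 and Msn4 showed the opposite pattern, with a lower interaction and a difference mainly at the start. Of 38 tested genes, 32 had a lower interaction and 3 a higher, where 22.9% and 26% of all tested genes did. The median of the 38 was −1.08. The list held 0.136% ± 0.00142 (SD, n = 2) of all TPM before heat shock without 5ph-IAA and 0.395% ± 0.00754 with it. After heat shock it held 6.61% ± 0.00256 and 5.78% ± 0.0313. At 30 °C, 29 genes were higher with 5ph-IAA and 1 lower, where 23.6% and 28.1% of all tested genes were, with a median of 0.88. At 39 °C, 10 were higher and 14 lower and the median was −0.05, which became 0.10 with library totals and 0.25 on the TPM scale. By the sort by size 17 of the 38 were lower start-level genes, as were 122 of all 5734 tested genes.

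TSL1, a subunit of the trehalose synthase complex, stood at 6.04 and 5.13 TPM at 30 °C and 927 and 896 at 39 °C. With 5ph-IAA it stood at 52.6 and 46.8 and then at 1379 and 1370. It was higher in the treated libraries at both temperatures, by 2.50 on the log2 scale at the start and 0.30 at the end, and its interaction was −2.20 ± 0.08 (adjusted p = 4.25e-10). GSY1, a glycogen synthase, went from 3.15 and 2.64 TPM to 230 and 213, and with 5ph-IAA from 27.8 and 29.5 to 270.2 and 288. Its interaction was −2.62 ± 0.11, and its fitted end levels differed by 0.04 (adjusted p = 0.544), or by 0.33 on the TPM scale. GPH1, the glycogen phosphorylase, had an interaction of −2.01 ± 0.07. RGI1, a gene of respiratory energy metabolism, stood at 12.7 and 11.9 TPM at 30 °C and 120.2 and 107 with 5ph-IAA, and ended at 4504 and 4577 and at 3793 and 3791. Its interaction was −3.10 ± 0.11 (adjusted p = 3.71e-10).

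Some members also ended lower with 5ph-IAA. HSP26, a small heat shock protein, rose from 15.2 and 18.6 to 7991 and 8080 TPM, and with 5ph-IAA from 46.6 and 49.1 to 5010 and 4833. Its groups overlapped at neither temperature, and the interaction was −1.85 ± 0.12. HSP12, a membrane-protecting protein, had −1.88 ± 0.11, and TMA10, a ribosome-associated protein, had −2.64 ± 0.18. SPI1, a cell wall protein, and GPX1, a glutathione peroxidase, went the other way with 0.36 ± 0.13 and 0.50 ± 0.17. Neither passed with library totals (0.11 and 0.25), and SPI1 changed sign on the TPM scale (−0.01) and had 0.205 without replicate 2 of the 30 °C control. DDR2 had 0 counts in both 30 °C libraries without 5ph-IAA and is given no fold.

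The chaperone genes of Hsf1 kept most of their response. Of 28 genes, 17 had a lower interaction and 4 a higher, where 22.9% and 26% of all tested genes did. The median of the 28 was −0.29, and 0 of them were higher with library totals or on the TPM scale. Of all 5734 tested genes 908 and 685 were higher there. Their median heat shock change was 3.81 without and 3.38 with 5ph-IAA, and the list held 9.72% ± 0.0882 and 9.27% ± 0.0824 of all TPM at 39 °C (SD, n = 2). SSA4, an inducible Hsp70, rose from 15.2 and 16 to 7341 and 7054 TPM, and with 5ph-IAA from 33.8 and 29.8 to 6473 and 6304, an interaction of −0.84 ± 0.08. HSP104, the disaggregase, had −0.93 ± 0.06, HSP82, an Hsp90, −0.74 ± 0.05, and HSP42, a small heat shock protein, −0.38 ± 0.06. The lowest values were those of SSA3, another Hsp70, with −1.33 ± 0.09, and CUR1, a sorting factor of misfolded proteins, with −1.27 ± 0.09. SSA2 (0.33 ± 0.05) and SSC1 (0.26 ± 0.05), Hsp70s that are made without stress, were called higher but had −0.03 and −0.09 on the TPM scale. The median of all tested genes was −0.348 there.

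**Figure D5:**
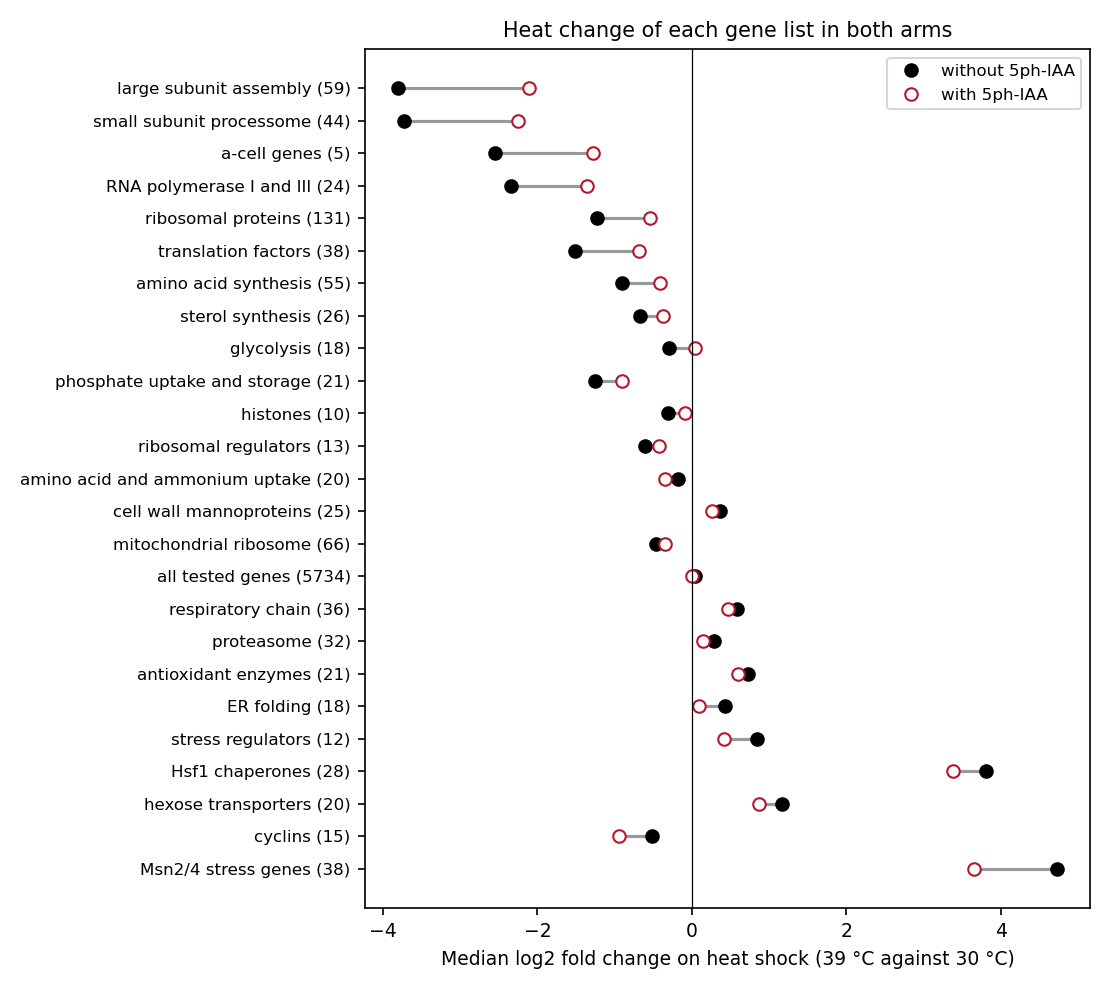
For each list the filled point is the median heat shock change (log2) without 5ph-IAA and the open point that with it, with the number of tested genes in parentheses. Large subunit assembly moved from −3.80 to −2.12, and the Msn2/4 stress genes from 4.72 to 3.66.

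The interactions of the regulators named here lay between −0.84 and 0.79. The highest and lowest in the lists of ribosomal and stress regulators were those of TOD6 (1.76) and GIS1 (−0.94). MSN2 (−0.84 ± 0.08), MSN4 (−0.49 ± 0.08) and HSF1 (−0.24 ± 0.07) had lower interactions, and so had RPN4, the activator of proteasome genes (−0.79 ± 0.07). HAC1, the factor of the unfolded protein response (0.75 ± 0.09), and GCN4, the factor of amino acid synthesis (0.57 ± 0.07), had higher ones. Among regulators of ribosomal protein genes, IFH1 had 0.79 ± 0.10, RAP1 −0.25 ± 0.08 and HMO1 −0.37 ± 0.08. IFH1 went from 24.1 and 22.6 TPM to 10.1 and 9.06 on heat shock without 5ph-IAA, and from 26.6 and 24 to 13.7 and 14.3 with it. Its fitted difference at 30 °C was −0.53, but 0.11 on the TPM scale. FHL1 (0.08, adjusted p = 0.67), SFP1 (−0.07, adjusted p = 0.477) and CRF1 (−0.16, adjusted p = 0.51) did not pass.

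Other pathways showed smaller or mixed interactions. Among all tested genes 26% had a higher and 22.9% a lower interaction, and counts near these shares are no result about a list. With library totals 908 of all 5734 tested genes were higher and 2550 lower, and on the TPM scale 685 and 2948. Counts under those scalings are to be read against these. Amino acid synthesis had 40 higher and 5 lower of 55 genes (median 0.41), with GLN1, glutamine synthetase (1.21 ± 0.07), and ILV3, an enzyme of branched-chain amino acid synthesis (1.33 ± 0.08), at the top. Sterol synthesis had 18 higher and 3 lower of 26 (median 0.39), and on the TPM scale 7 and 8. Glycolysis had 11 higher and 0 lower of 18 (median 0.33), but 4 and 6 with a median of −0.03 on the TPM scale. The mitochondrial ribosome had 14 higher and 2 lower of 66. With library totals it had 0 and 23, and its median was −0.182 against −0.256 for all tested genes. The proteasome had 0 higher and 11 lower of 32, and endoplasmic reticulum folding 3 higher and 9 lower of 18. Cyclins had 3 higher and 10 lower of 15 (median −0.46), with CLN2, a G1 cyclin, at 1.12 ± 0.09 and CLB6, an S phase cyclin, at −1.54 ± 0.29. The respiratory chain had 3 higher and 11 lower of 36, among them CYC7, the hypoxic cytochrome c, at −2.03 ± 0.13. Antioxidant enzymes had 2 higher and 9 lower of 21, with PRX1, a mitochondrial peroxiredoxin, at −1.52 ± 0.08. Stress regulators had 3 higher and 6 lower of 12, and ribosomal regulators 5 and 2 of 13, but 4 and 6 on the TPM scale.

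Transport and cell surface genes were mixed, and their counts are to be read against the 26% higher and 22.9% lower of all tested genes. On the TPM scale 685 of all 5734 tested genes were higher and 2948 lower. PHO84, the high-affinity phosphate transporter, had an interaction of 1.30 ± 0.10 and was an end-level gene, in a list with 10 higher and 3 lower of 21, but 4 and 7 on the TPM scale. HXT5, a hexose transporter, was one of the 11 lower end-level genes. It rose from 4.76 and 6.26 TPM to 154 and 152 without 5ph-IAA, and from 8.55 and 9.41 to 51.5 and 51.2 with it. In TPM the treated libraries were the higher ones at 30 °C and the lower ones at 39 °C, but the fitted difference at 30 °C was 0.06 (adjusted p = 0.746). Its interaction was −1.93 ± 0.15 and its 5ph-IAA difference at 39 °C −1.87. Hexose transporters as a list had 4 higher and 8 lower of 20. HXT6 and HXT7 are near-identical and had 1.53 and −2.31, so reads may be split between them, and their summed TPM gave −2.36. The counts of 3 further lists moved with library totals, where 908 of all 5734 tested genes were higher and 2550 lower. Cell wall mannoproteins had 10 higher and 7 lower of 25, and then 7 and 9. Histones had 4 and 1 of 10, and then 2 and 4. Amino acid and ammonium uptake had 6 and 4 of 20, and then 3 and 8. In turn the medians of these 3 lists with library totals were −0.18, −0.10 and −0.17, against −0.256 for all tested genes. Of the a-cell genes 3 of 5 were higher, with STE2 at 1.17 ± 0.07 and the a-factor exporter STE6 at 1.32 ± 0.07.

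Some large interactions were outside these lists. BSC1, a gene of unknown function on chromosome IV (384601 to 385587 in R64), had 5.02 ± 0.27 (adjusted p = 7.03e-09). It stood at 94.6 and 93.7 TPM at 30 °C and between 2.66 and 4.72 in the other 6 libraries, which had heat shock, 5ph-IAA or both. Its neighbour in R64, PRM7, a pheromone-regulated gene at 381985 to 384081, had 3.92 ± 0.13. R64 is of strain S288C, and whether BSC1 and PRM7 are separate genes in W303a was not tested. MGA1, a gene with a DNA-binding domain like that of Hsf1, had 3.01 ± 0.17. It rose from 21.4 and 15.4 to 75.6 and 77.2 TPM, and with 5ph-IAA from 4.72 and 4.16 to 112 and 119. ARO10, a decarboxylase of aromatic amino acid breakdown, had −2.88 ± 0.07 (adjusted p = 1.87e-11). It went from 50.7 and 50.4 to 672 and 652 TPM, and with 5ph-IAA from 191 and 184 to 267 and 255. The values of YER160C, a Ty element gene (4.80 ± 0.98), of YGR027W-A (3.17 ± 0.62) and of YHR054C (−3.93 ± 0.68) are uncertain. Repeated sequences can share reads, which was not tested for them. YHR054C had 0 counts in replicate 2 of the 30 °C control and 59 in replicate 1, and its fitted interaction ran from −12.36 without replicate 1 to −2.94 without replicate 2 of that group. That of YGR027W-A was 4.88 without replicate 2 of 39 °C without 5ph-IAA and at its lowest 2.39, without replicate 1 of that group. YAL063C-A and YKL104W-A rest on low and uneven levels.

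For 106 of the 2805 genes (3.78%) heat shock changes passed the test in both arms with opposite signs, where 82.2% of all tested genes were called for heat shock without and 76.2% with 5ph-IAA. For 51 of them this held under all 5 scalings. Of these 51, 42 rose without and fell with 5ph-IAA, and 9 fell without and rose with it. With the main scaling 42.5% of tested genes rose and 39.7% fell without 5ph-IAA, and 38% rose and 38.3% fell with it. The median heat shock change with 5ph-IAA was 0.006 there, −0.323 with library totals and −0.212 on the TPM scale. The demand for all 5 scalings therefore favoured genes that fell with 5ph-IAA, and the split of the 51 is no result about direction. TPO2, a polyamine exporter, was among the 9. It went from 110 and 93.3 TPM to 20.5 and 19.8 on heat shock without 5ph-IAA, and from 26.2 and 23.5 to 39.2 and 43.8 with it. The 39 °C libraries lay below the 30 °C ones without 5ph-IAA and above them with it, without overlap, and the interaction was 3.43 ± 0.10 (adjusted p = 5.59e-11). ROX1, a repressor of hypoxic genes, also fell without and rose with 5ph-IAA, with an interaction of 1.08. Among the 42 were GLN3, an activator of nitrogen genes (−1.07), PDR5, a drug exporter (−0.92), and the B-type cyclins CLB3 (−0.46) and CLB4 (−0.62). ROX1, GLN3, PDR5, CLB3 and CLB4 were chosen after their values were seen.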

How the data were processed

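For each library the authors deposited estimated counts and TPM over 6034 coding targets, from kallisto, as the submitters' processing notes say. The sources used here do not name its version, the transcript set or the build. Kallisto shares reads between similar targets, and 6.93% to 7.52% of the deposited estimated counts were not whole. The library kit does not mark strand, so overlapping genes cannot be told apart. Of the targets, 6031 matched an R64 locus tag, from which names were completed.

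Estimated counts were rounded and fitted in edgeR 4.0.16 (R 4.3.3; quasi-likelihood test, TMM scaling, filterByExpr, a term per group over all 8 libraries, 2-sided). Benjamini-Hochberg adjustment ran over the 5734 genes of each comparison, with 0.05 as threshold. The test code was tried on counts simulated from its own fitted model with few changed genes. That setting is unlike these data and does not check the calls made here. ± after a log2 value is the standard error, and each group had n = 2. Alternatives were 4 other scalings (limma 3.58.1 for deposited TPM on log2(TPM + 1)), a pseudocount of 0.1, DESeq2 1.42.0, no filter, summed copies, a replicate block and leaving out each library. Same-numbered replicates deviated together with r from −0.137 to 0.108 over the 6 pairs of groups, so the numbers were not taken to pair the libraries.

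The genes and 24 lists were chosen with earlier results of these data known, and the sort by size and the HXT6 and HXT7 sum after seeing the values. Genes named were the 8 highest and 8 lowest called interactions with a mean of at least 10 TPM in a group, the 3 highest and lowest of each class, the 2 highest and lowest called of each list, and a fixed set of regulators and examples. Genes with no counts in a whole group were left out of that ranking.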

Additional observations from a re-analysis of the deposited data

Results flagged for a closer look

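The heat shock change differed between cells with and without 5ph-IAA, by the test of the difference itself, for 2805 genes.

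Of the genes named by rule, 6 had heat shock changes that passed the test in both arms with opposite signs under all 5 scalings. PRM7 had an interaction of 3.92, TPO2 of 3.43, STP4, a predicted transcription factor gene, of 2.59, and TDA6 of 2.10, and these fell without and rose with 5ph-IAA. YGR035C (−3.11) and YDR261W-B, a Ty element gene whose reads other copies may share (−0.72, or −0.475 without replicate 2 of 39 °C without 5ph-IAA), rose without and fell with it. STP4 went from 111 and 98.8 TPM to 56.2 and 57.8 on heat shock without 5ph-IAA, and from 21.6 and 20.6 to 56.6 and 51.1 with it. YGR035C stood at 17.4 and 24.7 TPM and rose to 150.1 and 146 without 5ph-IAA, and went from 152 and 151 to 96.9 and 94.1 with it. No group holds enough libraries for a check of single outlying samples.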

How the results depend on the processing

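Library totals, and the TPM scales, which change the test and the transformation as well as the scaling, moved the counts of calls. With library totals, log2(TPM + 1) and log2(TPM + 0.1) in turn, the genes called higher were 908, 685 and 692 and those called lower 2550, 2948 and 2938. The genes called for 5ph-IAA at 30 °C were 4465, 5141 and 5134. In the same order the start-only class held 1511, 1434 and 1457 genes, the narrowed class 789, 1469 and 1436, the widened class 217, 323 and 325, the class of opposite signs 482, 200 and 199, and the class called at neither temperature 34, 7 and 7. The end-only class held 200 and 206 genes on the 2 TPM scales. DESeq2 put 37 genes in the widened class, and leaving out a library gave 34 to 58, against 61 with all libraries (40 without replicate 2 of the 30 °C control, 36 and 34 without replicates 1 and 2 of 30 °C with 5ph-IAA). On the log2(TPM + 1) scale the median interaction minus that of all genes was 1.47 for the processome and 1.45 for large subunit assembly. For the Hsf1 chaperones it ranged from −0.311 to −0.256 when a library was left out.

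The sign reversed for ribosomal regulators (−0.008 without replicate 2 of 30 °C with 5ph-IAA; all 8 omissions gave −0.008 to 0.163) and for amino acid and ammonium uptake (−0.050 without replicate 1 of the 30 °C control; −0.050 to 0.201). It reversed on the log2(TPM + 1) and log2(TPM + 0.1) scales for CNE1 (−0.022 and −0.013), SPI1 (−0.012 and −0.008), SSA2 (−0.030 and −0.030), SSC1 (−0.093 and −0.093) and TRX1 (−0.036 and −0.036). On the log2(TPM + 1) scale the median interaction of all tested genes was −0.348, against −0.003 with the main scaling. The cause was not tested. Of 128 named genes, 98 kept their sign and side of the threshold under each of the 17 alternatives that gave them a value. The 7 named ribosomal protein genes had none with copies summed. Leaving out a library gave 2417 to 2620 genes called in the interaction. A replicate block gave 2809, with 1499 higher and 1310 lower, and changed the call of 1 named gene. With 2 libraries a group the test had 4 residual degrees of freedom. In edgeR's quasi-likelihood test with Benjamini-Hochberg adjustment, at least 1 omission took the call from GPX1 (largest adjusted p 0.0946), HSF1 (0.0628), RAP1 (0.0937), RCL1 (0.0626, without replicate 2 of 39 °C with 5ph-IAA), RPL15B (0.248), SPI1 (0.232), YAL063C-A (0.107), ARG2 (0.058), CNE1 (0.0513), MRPL28 (0.17), SPS100 (0.126), ULI1 (0.0738) and UPC2 (0.167), each with its sign kept. DESeq2 gave adjusted p of 0.0528 for GPX1, 0.0821 for HSF1, 0.0854 for RAP1, 0.206 for YHR054C, 0.0823 for ARG2, 0.205 for MRPL28 and 0.168 for UPC2.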

Other observations

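The DSE and ADE genes, SCW11, EGT2, CTS1 and GUA1 were chosen after their values were seen, and no theme was tested. All 4 tested genes with a DSE name had a higher interaction, as did 26% of all tested genes. On the TPM scale 3 of the 4 did, as did 685 of all 5734 tested genes. DSE2, a daughter-specific wall protein, went from 411 and 403 TPM to 93.7 and 101 on heat shock without 5ph-IAA, and from 486 and 511 to 261 and 272 with it, an interaction of 1.51 ± 0.08 (adjusted p = 6.17e-09). In TPM the groups did not overlap and the treated libraries were higher at both temperatures, but with the main scaling the fitted difference at 30 °C was −0.36. DSE3 had 0.55 ± 0.10, the lowest of the 4, with a difference of 0.64 at 39 °C. DSE1 had 1.505 ± 0.08, DSE4 1.34 ± 0.07, SCW11 1.44 ± 0.09, EGT2 1.29 ± 0.06 and CTS1, the chitinase of cell separation, 1.10 ± 0.06, each with a 5ph-IAA difference at 39 °C between 0.97 (EGT2) and 1.32 (DSE1). On the log2(TPM + 1) scale the interactions other than that of DSE3 were between 0.74 (CTS1) and 1.15 (DSE2).

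All 11 tested genes with an ADE name, most of them enzymes of purine synthesis, had a higher interaction, from 0.16 to 1.81. Among all tested genes 26% did. With library totals 8 of the 11 were higher and on the TPM scale 6, with 0 lower in each. Of all 5734 tested genes 908 and 685 were higher there. The lowest ADE value, that of ADE16, was −0.09 with library totals and −0.19 on the TPM scale. ADE17, which acts in the last steps of the pathway, went from 99.5 and 99.1 TPM to 29.6 and 27.6 on heat shock without 5ph-IAA, and from 30.8 and 28.6 to 22.1 and 24.7 with it. Its interaction was 1.81 ± 0.09 (adjusted p = 3.73e-09), with a difference at the start (−2.39) larger than at the end (−0.58). ADE5,7 had 1.41 ± 0.07, ADE6 1.33 ± 0.09, GUA1 1.32 ± 0.06 and ADE1 1.17 ± 0.09.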
